A study of Mus musculus with 12 samples.

Results

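The 10 genes described here belong to the circadian clock and its direct output and were read in mouse skin: the activator *Arntl*, the output factors *Dbp* and *Tef*, the repressors *Per1*, *Per2*, *Per3*, *Cry1* and *Ciart*, and the nuclear receptors *Nr1d1* and *Nr1d2*. They were chosen by symbol, and all 10 had an entry among the 52636 genes counted and were among the 18822 genes that passed the filter on low counts. Full-thickness dorsal skin of C57BL/6 mice (C57BL/6J in the study's methods) aged 3 months was taken on day 14 from 4 groups of 3 mice, with 1 library per mouse. Mice named WT (wild type) and KO (*Cdc42*-/-, made with floxed *Cdc42* alleles and a Cre recombinase under the K5 promoter, which is active in basal keratinocytes) received the vehicle, normal saline with hydroxypropyl methylcellulose. The groups WT+ZnO NPs and KO+ZnO NPs had the same labelled genotypes and received zinc oxide nanoparticles (ZnO NPs) in that vehicle on the skin. The deletion is restricted to cells that use the K5 promoter, so that the other cells of the skin keep *Cdc42*. Per the study's supplement, the mice counted as WT carried 1 or both floxed alleles and no Cre. The hour at which the skin was collected was not given in the sources used here, so that the hour and the group cannot be told apart.

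The clock is a feedback loop that runs in nearly every cell, the cells of the epidermis, the dermis and the hair follicle among them. The protein of *Arntl* (BMAL1) pairs with CLOCK or NPAS2 and switches on genes that carry an E-box, which include the *Per* and *Cry* genes, *Ciart*, *Dbp*, *Tef*, *Nr1d1* and *Nr1d2*. PER and CRY proteins then block the pair, and the REV-ERB proteins of *Nr1d1* and *Nr1d2* repress *Arntl*. As a result, *Arntl* peaks at about the time when *Dbp* and *Nr1d1* are low, the output factors and *Nr1d1* swing widely over a day, and 1 collection per mouse reads a phase of the cycle together with any effect of treatment. *Per1* and *Per2* also respond to glucocorticoids and to acute stimuli outside the daily cycle.

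Of the 10 genes, 9 had a promoter in the RefSeq table of GRCm38.p6, with 12 promoters in all. The 250 bases before each start were searched on both strands for the E-box CACGTG, its variant CACGTT, the D-box TTATGTAA, which binds the proteins of *Dbp* and *Tef*, the core AGGTCA of REV-ERB and ROR sites, and the cyclic AMP element TGACGTCA. The E-box was present in 5 of the 12 promoters, those of 4 genes (*Tef* with both of its promoters, *Per1*, *Cry1* and *Ciart*), and in 6.02% of all 32851 promoters. Its variant was present in 2 of the 12 promoters (*Cry1* and *Nr1d1*, against 3.85% of all promoters), the D-box in 1 (*Per3*, 0.819%), the AGGTCA core in 2 (*Per1* and *Nr1d2*, 14.0%) and the cyclic AMP element in 0 (1.55%). Of the 5 genes with a match to the E-box or the D-box of the loop, the promoters of 4 are printed as examples. They run 5′ to 3′ on the strand of the gene, with the matched motifs in capitals. *Ciart* had 3 E-boxes (chr3:95882229-95882478, minus strand), *Cry1* had 1 E-box and 1 match to the variant, read as AACGTG on this strand (chr10:85185055-85185304, minus strand), and *Per3* had 2 D-boxes (chr4:151044666-151044915, minus strand). *Per1* had 1 E-box and 1 AGGTCA core, read as TGACCT on this strand, in the window before the first of its 2 RefSeq starts (chr11:69098699-69098948, plus strand), which lies inside the longer gene of the GENCODE annotation.
Ciart: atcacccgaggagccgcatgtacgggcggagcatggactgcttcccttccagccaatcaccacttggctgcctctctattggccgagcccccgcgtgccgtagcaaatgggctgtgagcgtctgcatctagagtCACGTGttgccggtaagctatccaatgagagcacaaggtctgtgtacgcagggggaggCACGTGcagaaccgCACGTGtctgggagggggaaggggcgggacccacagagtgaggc
Cry1: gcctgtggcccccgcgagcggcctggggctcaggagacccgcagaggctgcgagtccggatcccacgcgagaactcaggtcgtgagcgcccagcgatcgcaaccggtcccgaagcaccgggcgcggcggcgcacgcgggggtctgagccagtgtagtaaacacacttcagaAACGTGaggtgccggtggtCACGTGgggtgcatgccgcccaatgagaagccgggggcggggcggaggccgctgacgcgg
Per3: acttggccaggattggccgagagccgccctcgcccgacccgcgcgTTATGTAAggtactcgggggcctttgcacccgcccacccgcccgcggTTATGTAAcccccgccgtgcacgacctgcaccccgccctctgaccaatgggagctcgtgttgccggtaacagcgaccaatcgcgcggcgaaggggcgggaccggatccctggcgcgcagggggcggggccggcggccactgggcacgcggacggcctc
Per1: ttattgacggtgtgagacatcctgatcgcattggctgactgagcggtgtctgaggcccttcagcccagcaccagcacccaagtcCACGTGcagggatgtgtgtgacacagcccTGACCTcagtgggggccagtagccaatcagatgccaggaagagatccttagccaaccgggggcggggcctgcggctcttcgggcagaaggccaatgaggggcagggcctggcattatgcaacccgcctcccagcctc
The windows of *Dbp* and *Arntl* held none of the 5 motifs. A match describes the letters of the window and no binding was measured.

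Total counts were between 21076320 and 28867802 per library. The *Cdc42* transcript was 606 to 628 CPM (counts scaled to a common library total) in WT and 415 to 464 in KO, but 311 to 350 in the libraries with the WT+ZnO NPs label and 314 to 453 in those with the KO+ZnO NPs label, so that it goes against the label of the former and does not separate the libraries given ZnO NPs. Y-linked transcripts (192 to 242 summed CPM) were found in 5 libraries, namely all 3 with the WT+ZnO NPs label, KO replicate 1 and KO+ZnO NPs replicate 1, and in none of WT, so that sex and ZnO NPs cannot be told apart between WT and WT+ZnO NPs. The study's methods name female KO mice, which the Y-linked transcripts of these KO and KO+ZnO NPs libraries go against. Keratinocyte markers were present in every library, with a summed level of 5744 to 24727 CPM. KO+ZnO NPs replicate 2 had the lowest number of genes with a count (23497 against 24245 to 25591 in the other 11 libraries) and stood apart in several clock genes. Mitochondrial transcripts took 2.42% to 3.20% of the counts in the 6 vehicle libraries and 3.66% to 5.29% in the 6 libraries given ZnO NPs, with no overlap, and their part in the results below was not tested. The tissue was whole skin, in which fewer cells of a type and less RNA per cell cannot be told apart.

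Levels below are CPM scaled by TMM factors, and comparisons between genes use CPM per kilobase of exon. Per length, *Tef* was the most abundant of the 10 genes in WT skin, with 28.6 ± 4.16 CPM per kilobase (SD, n = 3), followed by *Dbp* (24.4 ± 9.20), *Nr1d2* (22.1 ± 4.80), *Nr1d1* (18.9 ± 6.80) and *Per1* (14.0 ± 3.17). *Per2* (7.65 ± 0.559 CPM per kilobase), *Cry1* (7.27 ± 1.68) and *Per3* (6.54 ± 0.888) lay below these, and *Ciart* (2.61 ± 0.6004) and *Arntl* (1.56 ± 0.448) were lowest. The levels of *Tef*, *Dbp*, *Nr1d2* and *Nr1d1* overlapped within 1 SD, as did those of *Per2*, *Cry1* and *Per3*. In the libraries with the KO+ZnO NPs label *Per1* was at 22.7, 42.9 and 21.5 CPM per kilobase and *Tef* at 19.1, 13.6 and 34.5, so that their order differed between these libraries.

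Between KO and WT 0 of the 10 clock genes passed the test, which 8.18% of all genes did. Among the libraries with the WT+ZnO NPs label, *Per2* fell, and *Dbp*, *Per3*, *Arntl* and *Ciart* separated completely from WT without passing the test over all genes. In that comparison 43% of all genes passed and 59.4% did not overlap. The 1 of 10 called lies below the former share, and the 5 of 10 without overlap lie near the latter. Among the libraries with the KO+ZnO NPs label, *Dbp* and *Nr1d1* lay below every KO library and none of the 10 passed (14.7% of all genes passed and 34.7% did not overlap). Tests were by edgeR's quasi-likelihood method, with p-values adjusted by Benjamini-Hochberg over all 18822 genes, at an adjusted p below 0.05, and fold changes are on the log2 scale with their standard error (SE).

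**Figure D1:**
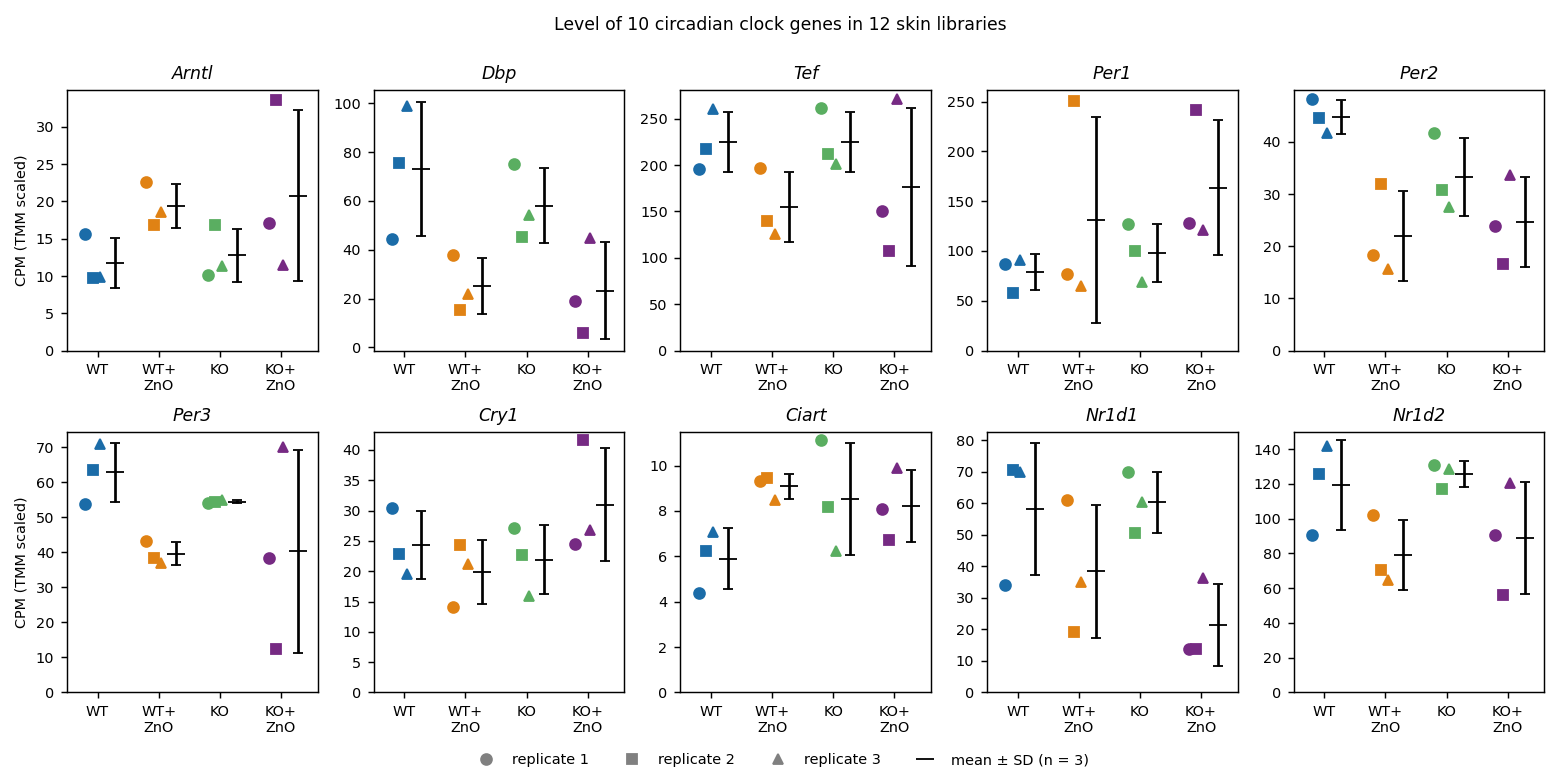
Level of each clock gene in 12 libraries, in CPM scaled by TMM factors (vertical axes, each from about 0), for WT, WT+ZnO NPs, KO and KO+ZnO NPs (horizontal axes, by label); points are libraries, shaped by replicate number, and bars are the group mean ± SD (n = 3). *Per2* in the libraries with the WT+ZnO NPs label (15.7 to 31.8 CPM) sits below every WT library (41.6 to 48.2), and KO+ZnO NPs replicate 2 (squares) has the lowest *Dbp* (6.00 CPM) and the highest *Arntl* (33.7 CPM).

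*Arntl* (ENSMUSG00000055116, chromosome 7, 113207465 to 113314126, plus strand) encodes the activator of the loop. Its level was 15.6, 9.69 and 9.86 CPM in the 3 WT libraries and 10.1, 16.8 and 11.4 CPM in the 3 KO libraries. It was 22.6, 16.9 and 18.6 CPM in the libraries with the WT+ZnO NPs label and 17.1, 33.7 and 11.5 CPM in those with the KO+ZnO NPs label. Of the 6 libraries given ZnO NPs, 5 lay above all 6 vehicle libraries, and the exception was KO+ZnO NPs replicate 3, which lay among them. The log2 fold change was 0.72 (SE 0.37, edgeR adjusted p = 0.132) between WT+ZnO NPs and WT, whose libraries did not overlap, and 0.70 (SE 0.37, edgeR adjusted p = 0.209) between KO+ZnO NPs and KO, whose libraries did. Without KO+ZnO NPs replicate 2 the latter was 0.19.

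*Dbp* (ENSMUSG00000059824, chromosome 7, 45705088 to 45710203, plus strand) encodes a PAR bZIP factor that is among the strongest cycling outputs of the clock. It was at 44.2, 75.7 and 99.1 CPM in WT, and at 75.1, 45.1 and 54.1 CPM in KO. In the libraries with the WT+ZnO NPs label it was at 37.9, 15.4 and 21.95 CPM, and in those with the KO+ZnO NPs label at 19.2, 6.00 and 44.8 CPM. All libraries given ZnO NPs were therefore below those of their own vehicle group, although KO+ZnO NPs replicate 3 (44.8 CPM) was only just below the lowest KO library (45.1 CPM) and above WT replicate 1. The log2 fold change was -1.54 (SE 0.60, edgeR adjusted p = 0.0588) for WT+ZnO NPs against WT, with a 95% interval from -2.86 to -0.22, and -1.32 (SE 0.60, edgeR adjusted p = 0.154) for KO+ZnO NPs against KO, with an interval from -2.63 to 0.00. Without KO+ZnO NPs replicate 2 the latter was -0.84, and without replicate 3 of that group it was -2.18 and passed (edgeR adjusted p = 0.0412). The difference between WT+ZnO NPs and WT passed in 8 of 22 alternative settings, with log2 fold changes from -1.97 to -1.26 over all 22. Among the 8 were both forms of DESeq2, a block for the replicate number and 3 fits that left out 1 library. *Dbp* shares 18.0% of its exon bases with *Sphk2* on the opposite strand, and whether the counting used strand was not given in the sources used here, so that reads from the shared part are uncertain.

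*Tef* (ENSMUSG00000022389, chromosome 15, 81802421 to 81826863, plus strand) encodes another PAR bZIP factor. Its level was 196, 218 and 260.5 CPM in WT and 262, 212 and 201 CPM in KO, against 197, 140.1 and 126 CPM in the libraries with the WT+ZnO NPs label. The libraries labelled KO+ZnO NPs were at 150.3, 107 and 272 CPM and so held both the lowest and the highest value of the 12. The groups overlapped in every comparison, with log2 fold changes of -0.54 (SE 0.30, edgeR adjusted p = 0.169) and -0.35 (SE 0.30, edgeR adjusted p = 0.450) under ZnO NPs in WT and KO by label, the latter being -0.07 without KO+ZnO NPs replicate 2. Between KO and WT the log2 fold change was 0.00, with a 95% interval from -0.67 to 0.67.

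*Per2* (ENSMUSG00000055866, chromosome 1, 91415982 to 91459324, minus strand), which encodes a PERIOD protein of the repressor complex, was the gene of the 10 that passed. It was at 48.2, 44.5 and 41.6 CPM in WT, and at 18.3, 31.8 and 15.7 CPM in the libraries with the WT+ZnO NPs label. It was at 41.8, 30.8 and 27.4 CPM in KO, and at 23.9, 16.5 and 33.7 CPM in the libraries with the KO+ZnO NPs label. The WT libraries stood above all others except KO replicate 1, which was just above the lowest of them, and the KO and KO+ZnO NPs libraries overlapped. *Per2* was 2.04-fold lower in WT+ZnO NPs than in WT (log2 fold change -1.03, SE 0.30, edgeR adjusted p = 0.0190). The difference between KO+ZnO NPs and KO was -0.43 (SE 0.30, edgeR adjusted p = 0.345) and -0.19 without KO+ZnO NPs replicate 2, and the interaction between genotype and ZnO NPs, which tests the difference of these differences, was 0.60 (SE 0.42, edgeR adjusted p = 0.392), so that a difference between the genotypes was not shown. Over 22 alternative settings *Per2* stayed lower in WT+ZnO NPs in all and was called in 18, with log2 fold changes from -1.40 to -0.84.

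*Per3* (ENSMUSG00000028957, chromosome 4, 151003652 to 151044665, minus strand) encodes a PERIOD protein that is less needed for the cycle than the other two. It was at 53.9, 63.6 and 70.9 CPM in WT and at 43.3, 38.5 and 37.0 CPM in the libraries with the WT+ZnO NPs label. The KO libraries were at 54.0, 54.4 and 54.9 CPM, a spread of less than 1 CPM, whereas those with the KO+ZnO NPs label were at 38.3, 12.4 and 70.2 CPM. WT+ZnO NPs and WT thus did not overlap, with a log2 fold change of -0.66 (SE 0.43, edgeR adjusted p = 0.233). The log2 fold change for KO+ZnO NPs against KO was -0.43 (SE 0.43, edgeR adjusted p = 0.515) and rested on replicate 2, since it was 0.011 without it. In the fit without that library, which also enters the spread shared by all groups, the difference between WT+ZnO NPs and WT was -0.62 and passed (edgeR adjusted p = 0.0254).

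*Per1* (ENSMUSG00000020893, chromosome 11, 69095217 to 69109960, plus strand) encodes a PERIOD protein and is also induced rapidly by stimuli from outside the cell. Its level was 87.3, 58.2 and 90.7 CPM in WT and 127, 99.99 and 68.4 CPM in KO. It was 77.4, 250.3 and 64.8 CPM in the libraries with the WT+ZnO NPs label and 128, 242 and 121 CPM in those with the KO+ZnO NPs label. Replicate 2 of each group given ZnO NPs stood far above the other 10 libraries, the highest of which was at 128 CPM, and the groups overlapped. The log2 fold change was 0.73 (SE 0.49) in both comparisons with vehicle, with edgeR adjusted p = 0.245 for WT+ZnO NPs and edgeR adjusted p = 0.321 for KO+ZnO NPs. Without WT+ZnO NPs replicate 2 the former was -0.15, and without KO+ZnO NPs replicate 2 the latter was 0.36.

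Lists of genes that share stimuli with *Per1* were read beside it. The 7 immediate early genes (*Fos*, *Fosb*, *Jun*, *Junb*, *Egr1*, *Atf3* and *Ier2*), which are switched on within minutes of a stimulus, were all called higher in WT+ZnO NPs than in WT, where 43% of all genes were called and 20.8% called higher. Their summed level was 330 to 596 CPM in WT and 1763 to 9334 CPM in the libraries with the WT+ZnO NPs label, namely 4536, 9334 and 1763 CPM in replicates 1, 2 and 3. Replicate 2 also had the highest *Per1*, while replicate 1 had *Per1* within the range of WT. It was 639 to 1361 CPM in KO and 397 to 1167 CPM in the libraries with the KO+ZnO NPs label, in which replicate 2 was the highest of its group. That library had *Per1* at 242 CPM with a sum (1167 CPM) below that of KO replicate 1, and WT replicate 3 had the highest *Per1* and the lowest sum of WT, so that the orders of both measures differed between libraries. Of the 6 glucocorticoid response genes, *Sgk1* (log2 fold change 1.29, SE 0.38, edgeR adjusted p = 0.0199) and *Dusp1* (2.26, SE 0.64, edgeR adjusted p = 0.0163) rose in WT+ZnO NPs, and *Fkbp5* (1.32, SE 0.28, edgeR adjusted p = 0.0167) and *Ddit4* (1.60, SE 0.32, edgeR adjusted p = 0.0135) rose in KO+ZnO NPs against KO. Among all genes 6.57% were called higher in the latter comparison. In WT+ZnO NPs against WT the median log2 fold change of the 6 genes was 0.08, and *Zbtb16* lay below every WT library without being called (-0.66). For KO+ZnO NPs against KO the median was 0.53, and *Dusp1* was lower without being called (-0.64). The summed level of the 6 glucocorticoid response genes was highest in KO+ZnO NPs replicate 2 (1716 CPM) and WT+ZnO NPs replicate 2 (1390 CPM). These were also the libraries with the highest *Per1*. KO+ZnO NPs replicate 1 (1218 CPM) and KO replicate 1 (1081 CPM) came next. WT+ZnO NPs replicate 1, with *Per1* within the range of WT, was close to the latter (1081 CPM). The part of these stimuli in the *Per1* levels was not tested.

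*Cry1* (ENSMUSG00000020038, chromosome 10, 85131700 to 85185064, minus strand) encodes a cryptochrome, the partner of the PERIOD proteins. It was at 30.5, 22.8 and 19.5 CPM in WT, 27.2, 22.7 and 15.9 CPM in KO, and 14.1, 24.3 and 21.2 CPM in the libraries with the WT+ZnO NPs label. The libraries labelled KO+ZnO NPs, at 24.4, 41.6 and 26.9 CPM, lay above all of those with the WT+ZnO NPs label (the nearest were 24.4 and 24.3 CPM) and overlapped KO. The log2 fold change between these ZnO NP groups was 0.64 (SE 0.29, edgeR adjusted p = 0.197), and it was 0.35 without KO+ZnO NPs replicate 2. *Ciart* (ENSMUSG00000038550, chromosome 3, 95878503 to 95882251, minus strand) encodes a repressor of the BMAL1 and CLOCK pair and had the lowest CPM of the 10. It was at 4.41, 6.25 and 7.05 CPM in WT, against 9.32, 9.46 and 8.46 CPM in the libraries with the WT+ZnO NPs label, 11.1, 8.20 and 6.25 CPM in KO and 8.07, 6.70 and 9.89 CPM in the libraries with the KO+ZnO NPs label. Its WT+ZnO NPs libraries did not overlap WT, with a log2 fold change of 0.62 (SE 0.26, edgeR adjusted p = 0.0727). It passed in 4 of 22 alternative settings (scaling by library size, edgeR or DESeq2 on WT and WT+ZnO NPs alone, and without KO+ZnO NPs replicate 2) and was 0.32 (edgeR adjusted p = 0.567) with Y-linked transcripts as a covariate, while the interval for KO+ZnO NPs against KO ran from -0.62 to 0.51.

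*Nr1d1* (ENSMUSG00000020889, chromosome 11, 98767932 to 98775333, minus strand) encodes REV-ERBα, the main repressor of *Arntl*. It was at 33.9, 70.4 and 69.9 CPM in WT, and at 69.9, 50.5 and 60.3 CPM in KO. It was at 61.004, 19.1 and 35.0 CPM in the libraries with the WT+ZnO NPs label, which overlapped WT, and at 13.9, 13.7 and 36.3 CPM in those with the KO+ZnO NPs label, which all lay below KO. The log2 fold change was -0.60 (SE 0.47, edgeR adjusted p = 0.327) in the former and -1.50 (SE 0.48, edgeR adjusted p = 0.0598) in the latter, and their difference, the interaction, was -0.90 (SE 0.67, edgeR adjusted p = 0.413). With 1 library left out at a time, the former ran from -1.10 (without WT+ZnO NPs replicate 1) to -0.28 (without replicate 2), and the interaction from -1.55 (without KO+ZnO NPs replicate 3) to -0.40 (without WT+ZnO NPs replicate 1), and neither passed in any of these fits. The KO+ZnO NPs difference passed without replicate 3 of that group (-2.11, edgeR adjusted p = 0.0283) and remained short of the threshold without replicate 2 (-1.25, edgeR adjusted p = 0.158). It passed in 6 of 22 alternative settings, among them the fits without WT+ZnO NPs replicate 1 (edgeR adjusted p = 0.0470) or 2 (edgeR adjusted p = 0.0461). *Nr1d1* shares 8.55% of its exon bases with *Thra* on the opposite strand. *Nr1d2* (ENSMUSG00000021775, chromosome 14, 18204054 to 18239127, minus strand), which encodes REV-ERBβ, was at 90.9, 126 and 142 CPM in WT, 131, 117 and 129 CPM in KO, 102, 70.2 and 64.8 CPM in the libraries with the WT+ZnO NPs label and 90.6, 56.1 and 120.4 CPM in those with the KO+ZnO NPs label. The groups overlapped, with log2 fold changes of -0.59 (SE 0.27, edgeR adjusted p = 0.0969) in WT and -0.50 (SE 0.27, edgeR adjusted p = 0.226) in KO by label, the latter being -0.23 without KO+ZnO NPs replicate 2.

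**Figure D2:**
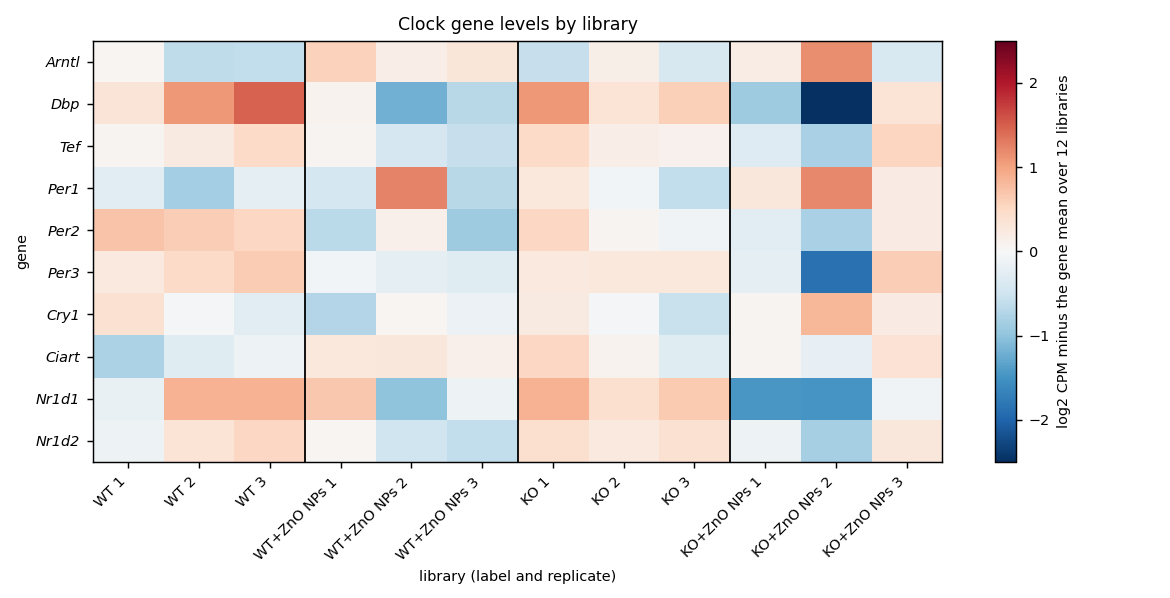
Log2 CPM of each clock gene (rows) in each of 12 libraries (columns, by label and replicate), with the mean of the gene over the 12 libraries subtracted (colour, red higher and blue lower); lines divide the groups. *Dbp*, *Tef*, *Per3*, *Nr1d1* and *Nr1d2* are blue together, most of all in KO+ZnO NPs replicate 2, where *Arntl* is red.

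Counted over the 10 genes, 0 were called between KO and WT, where 8.18% of all genes were called (4.61% higher and 3.58% lower), and 0 had an unadjusted p below 0.05, beside 26.1% of all genes. None was without overlap between these groups, beside 38.5% of all genes (18.6% higher and 19.9% lower). Their log2 fold changes in that comparison were between -0.43 for *Per2* and 0.53 for *Ciart*, with a median of 0.03 beside 0.01 over all genes. Between WT+ZnO NPs and WT, 1 of 10 was called, *Per2*, which was lower, where 43% of all genes were called and 22.1% called lower. In that comparison 3 of the 10 had an unadjusted p below 0.05, beside 51.6% of all genes, and 5 did not overlap between the groups (3 lower and 2 higher), beside 59.4% of all genes without overlap (29.3% lower and 30.1% higher), and the median log2 fold change was -0.57 beside 0.06. The share of the clock genes without overlap was near that of all genes. The share called lay below that of all genes in this fit, but it changed with the model and with single libraries, as given below.

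Between KO+ZnO NPs and KO, 0 of 10 were called, where 14.7% of all genes were (6.57% higher and 8.09% lower), 1 had an unadjusted p below 0.05, beside 32.6% of all genes, and 2 did not overlap, both lower, beside 34.7% of all genes (17.7% lower). The median log2 fold change was -0.39 beside 0.01 over all genes. Between the groups given ZnO NPs, 0 of 10 were called (3.28% of all genes, 2.13% higher and 1.16% lower), 1 had an unadjusted p below 0.05, beside 24.8% of all genes, and 1 did not overlap (*Cry1*, higher, beside 13% of all genes higher and 23.7% either way). The interaction called 0 of 10 (8.68% of all genes, 5.08% higher and 3.59% lower), with 0 at an unadjusted p below 0.05, beside 27.4% of all genes, and its estimates ran from -0.90 for *Nr1d1* to 0.78 for *Cry1*. The test for any difference among the 4 groups called 1 of 10, *Per2* (edgeR adjusted p = 0.0478), where it called 47.4% of all genes, and with the replicate number as a block it called *Dbp* instead of *Per2*. It called 0 of 10 in 8 of the 12 fits that left out 1 library, namely any of WT or KO, WT+ZnO NPs replicate 3 or KO+ZnO NPs replicate 1. In these 8 fits it called 34.2% to 48.1% of all genes. These comparisons share groups and are not independent of each other.

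**Figure D3:**
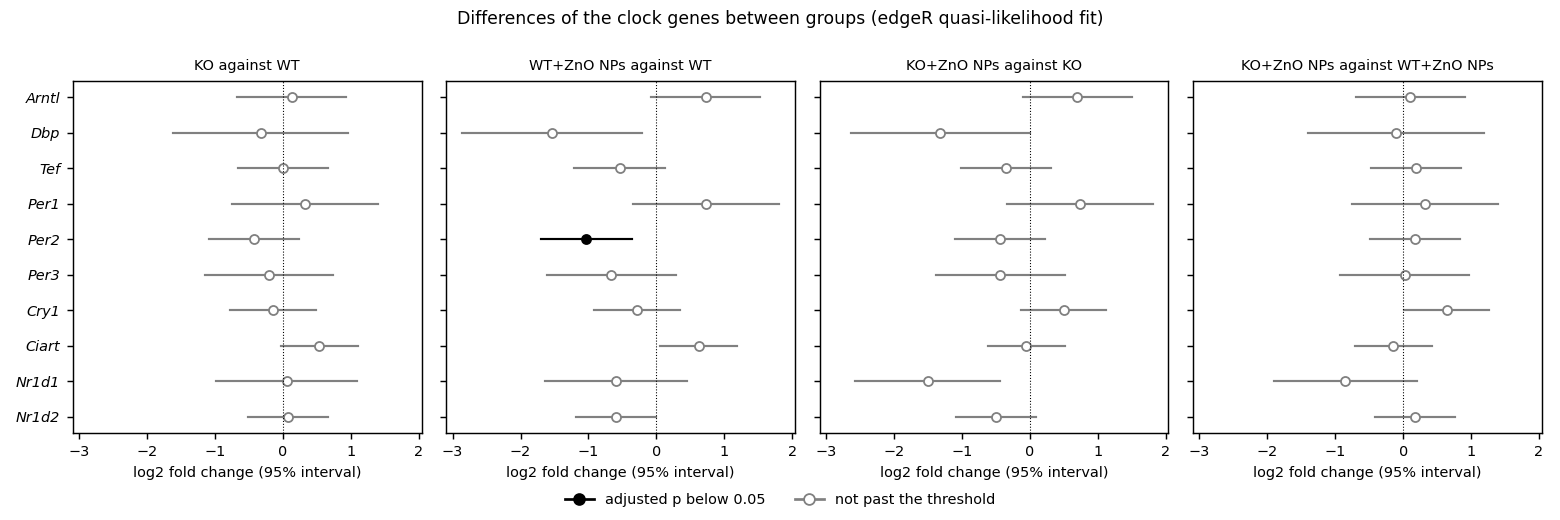
Log2 fold change (horizontal axes) of 10 clock genes (rows) in 4 comparisons of 3 against 3 libraries, with 95% intervals from edgeR's quasi-likelihood fit; filled points passed an adjusted p of 0.05. *Per2* in WT+ZnO NPs against WT (-1.03) is the filled point, and the intervals of *Dbp* are the widest.

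The count for WT+ZnO NPs against WT depended on single libraries and on the model. It was 5 of 10 without KO+ZnO NPs replicate 2 (*Arntl*, *Ciart*, *Dbp*, *Per2* and *Per3*, with 46.7% of all genes called). Without WT+ZnO NPs replicate 1 it was 2 of 10, *Dbp* and *Nr1d2* (37.2% of all genes), and *Per2* was not called (-0.92, edgeR adjusted p = 0.0653). It was 0 of 10 without WT replicate 1 or without WT+ZnO NPs replicate 3 (33.5% and 30.7% of all genes). With the presence of Y-linked transcripts as a covariate it was also 0 of 10, where 20.7% of all genes were called, although *Per2* was then at -1.26 (SE 0.44, edgeR adjusted p = 0.0679) and *Dbp* at -1.67 (SE 0.88, edgeR adjusted p = 0.203). Since all libraries labelled WT+ZnO NPs and none of WT held these transcripts, that fit takes the effect of sex from the 6 KO and KO+ZnO NPs libraries. The count for KO+ZnO NPs against KO was 2 of 10 (*Dbp* and *Nr1d1*, with 10.4% of all genes called) without KO+ZnO NPs replicate 3.

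The spread between mice of a group lay above the middle of all genes for 9 of the 10 clock genes, the exception being *Ciart* at the 47.3 percentile, and without KO+ZnO NPs replicate 2 for 8 of 10, the exceptions then being *Per3* (45.4) and *Nr1d2* (48.5). The median of their within-group SD of log2 CPM was 0.45, against 0.33 over all genes tested, and a median of 45.2% of their variance lay between groups, against 63.1%. Without that library the median SD was 0.35 against 0.29. *Dbp* had the largest within-group SD of the 10 (0.87), at the 91.3 percentile of all genes, and a range over the 12 libraries of 4.03 on the log2 scale, and without that library these were 0.61, at the 82.0 percentile, and 2.68, and *Nr1d1* (0.67) and *Per1* (0.64) then had a larger SD. *Ciart* had the smallest SD over the 12 libraries (0.31). For *Per1* (0.66), *Per3* (0.64) and *Nr1d1* (0.66) it was between these.

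*Dbp*, *Tef*, *Per3*, *Nr1d1* and *Nr1d2* were grouped after they had been seen to move together. Over the 12 libraries, the 10 pairs that can be formed from these genes had Pearson correlations of log2 CPM from 0.72 (*Per3* and *Nr1d1*) to 0.94 (*Tef* and *Nr1d2*), with a median of 0.88. After subtraction of the group means the same pairs ran from 0.57 to 0.95 with a median of 0.85. The 26 pairs outside this set and without *Arntl* had a median of -0.09 over the 12 libraries and 0.13 after subtraction, with 11 of 26 then below 0. Without KO+ZnO NPs replicate 2 the 10 pairs ran from 0.63 to 0.91. *Arntl* ran opposite to these genes, at -0.87 with *Dbp*, -0.87 with *Per3*, -0.83 with *Nr1d2*, -0.81 with *Tef* and -0.67 with *Nr1d1*, and 7 of its 9 pairs were below 0. Without that library *Arntl* was at -0.76 with *Dbp*, -0.79 with *Per3* and -0.50 with *Nr1d1*. After subtraction of the group means over the 12 libraries *Arntl* was at -0.79 with *Dbp*, -0.825 with *Per3*, -0.72 with *Nr1d2*, -0.69 with *Tef* and -0.50 with *Nr1d1*. With KO+ZnO NPs replicate 2 also left out these were -0.51, -0.54, -0.43, -0.40 and -0.42. *Per2* stood at 0.70 with *Dbp* and *Per3* and at 0.44 with *Nr1d1*, but after subtraction of the group means at 0.39, 0.59 and 0.01, and with KO+ZnO NPs replicate 2 also left out at -0.06, 0.24 and -0.20. *Per1* stood at -0.67 with *Dbp* and 0.63 with *Cry1*, and *Ciart* between -0.04 and 0.04 with *Dbp*, *Per3*, *Nr1d1* and *Arntl*. After subtraction of the group means, however, *Ciart* was at 0.66 with *Dbp*, 0.53 with *Per3*, 0.54 with *Nr1d1* and -0.64 with *Arntl*. These are descriptions over 12 points that share groups and libraries.

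Set in order by log2 CPM of *Arntl* minus that of *Dbp*, the libraries ran from 2.47 in KO+ZnO NPs replicate 2 to -3.32 in WT replicate 3. WT+ZnO NPs replicate 2 (0.13), KO+ZnO NPs replicate 1 (-0.16), WT+ZnO NPs replicate 3 (-0.24) and WT+ZnO NPs replicate 1 (-0.74) came next, so that 5 of the 6 libraries given ZnO NPs stood above all vehicle libraries. The vehicle libraries began with KO replicate 2 (-1.42) and WT replicate 1 (-1.50), and KO+ZnO NPs replicate 3 (-1.95) lay among them, followed by KO replicates 3 (-2.24) and 1 (-2.88) and WT replicates 2 (-2.96) and 3 (-3.32). WT and KO libraries were interleaved in this order. The libraries given ZnO NPs with a level beyond every vehicle library were 5 of 6 for *Dbp* (lower), *Arntl* (higher) and *Per3* (lower), 4 of 6 for *Per2*, *Tef* and *Nr1d2* (lower), 3 of 6 for *Nr1d1* (lower) and *Per1* (higher), 1 of 6 in each direction for *Cry1* and 0 for *Ciart*. *Tef* also had 1 library above all vehicle libraries. At least 5 of 6 libraries lay beyond on 1 side for 3 of the 10 genes, beside 30.8% of all genes. For at least 4 of 6 it was 6 of the 10, beside 46.9%, and for at least 3 of 6 it was 8 of the 10, beside 63.7%.

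**Figure D4:**
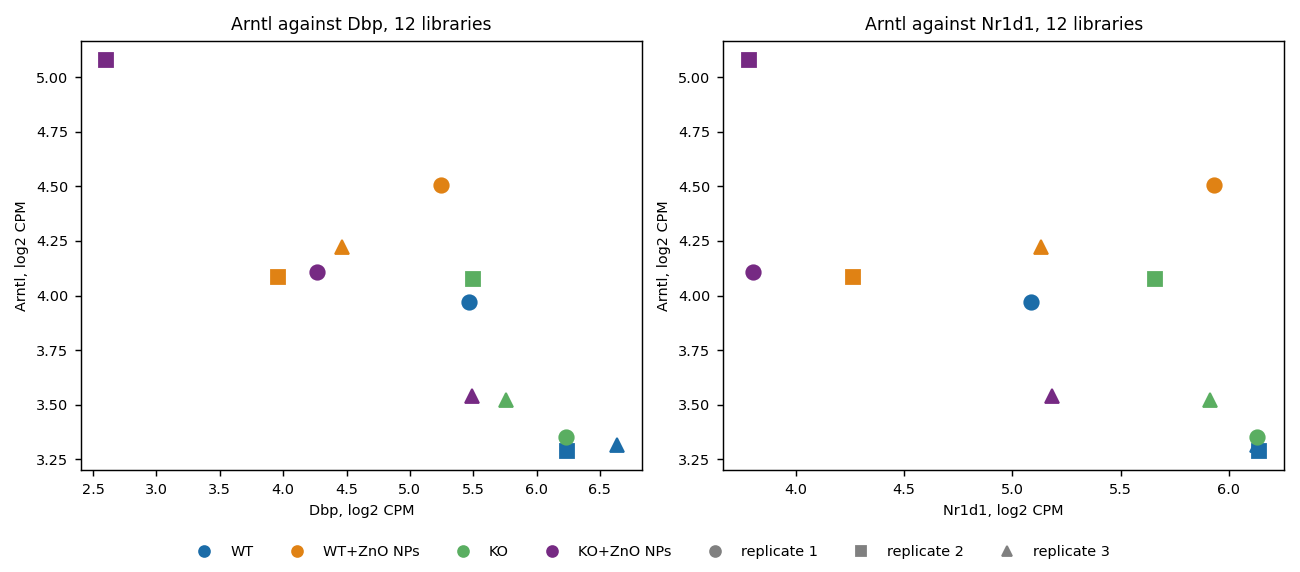
*Arntl* (vertical axes, log2 CPM) against *Dbp* (left) and *Nr1d1* (right; horizontal axes, log2 CPM) in 12 libraries, coloured by labelled group and shaped by replicate number. KO+ZnO NPs replicate 2 is at the upper left of both plots, the correlation is -0.87 with *Dbp* and -0.67 with *Nr1d1*, and KO+ZnO NPs replicate 3 sits among the vehicle libraries.

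Markers of other cell types moved between the same groups, where 43% (WT+ZnO NPs against WT), 14.7% (KO+ZnO NPs against KO) and 8.18% (KO against WT) of all genes were called. The 5 immune cell markers had a summed level of 2303 to 2988 CPM in WT and 2114 to 3426 CPM in KO, against 342 to 702 CPM in the libraries with the WT+ZnO NPs label (4 of 5 called lower than WT) and 716 to 1124 CPM in those with the KO+ZnO NPs label (5 of 5 called lower than KO), and 1 of 5 was called higher in KO than in WT. The 5 adipocyte markers ran from 4501 to 6458 CPM in WT and from 637 to 1379 CPM in WT+ZnO NPs (4 of 5 called lower), and from 1551 to 3139 CPM in KO and 1042 to 3795 CPM in KO+ZnO NPs (0 of 5 called). The 6 anagen hair follicle markers were at 4.32 to 8.20 CPM in WT, where *Krt71* and *Krt73* were at 0 in replicate 2, at 731 to 4816 CPM in WT+ZnO NPs and at 26.2 to 11897 CPM in KO (6 of 6 called higher than WT in each), and at 209.5 to 8637 CPM in KO+ZnO NPs (0 of 6 called against KO). The 5 keratinocyte markers ran from 7510 to 11309 CPM in WT and 5744 to 9906 CPM in WT+ZnO NPs (3 of 5 called lower and 1 higher). They ran from 13229 to 24727 CPM in KO and 10705 to 16719 CPM in KO+ZnO NPs (0 of 5 called against KO). The summed level did not overlap between KO and WT (0 of 5 called). Nor did it between KO+ZnO NPs and WT+ZnO NPs (1 of 5 called higher, beside 3.28% of all genes called). The 7 skeletal muscle markers ran from 5337 to 6416 CPM in WT, 5575 to 21282 CPM in WT+ZnO NPs, 1587 to 5358 CPM in KO and 3088 to 16886 CPM in KO+ZnO NPs (2 of 7 called higher than KO), and 1 of 7 was called lower in KO than in WT. The 5 dermal fibroblast markers ran from 6730.4 to 13390 CPM in WT, 7586 to 33077 CPM in WT+ZnO NPs (1 of 5 called higher and 2 lower), 22327 to 36210.2 CPM in KO (0 called, without overlap of the summed level with WT) and 15421 to 20884 CPM in KO+ZnO NPs (1 of 5 called lower than KO). The part of these markers in the clock gene levels was not tested.

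Beyond the 10 genes, 20 other genes of the clock were read by role, all of which passed the filter: the positive arm (*Clock*, *Npas2*, *Rora*, *Rorb*), further repressors (*Cry2*, *Bhlhe40*, *Bhlhe41*, *Nfil3*), kinases and ubiquitin ligases that set the life of clock proteins (*Csnk1d*, *Csnk1e*, *Gsk3b*, *Fbxl21*, *Btrc*), and genes listed as outputs (*Hlf*, *Usp2*, *Wee1*, *Noct*, *Nampt*, *Tspan4*, *Tsc22d3*). Whether *Tspan4* follows the clock was not checked. Between WT+ZnO NPs and WT, 3 rose and 2 fell, beside the 20.8% and 22.1% of all genes given above. Of the positive arm 1 of 4 rose, *Npas2*, which encodes a partner of BMAL1 in place of CLOCK. It was at 1.47, 0.913 and 0.892 CPM in WT and at 2.92, 3.11 and 2.29 CPM in the libraries with the WT+ZnO NPs label, with no overlap (log2 fold change 1.34, SE 0.37, edgeR adjusted p = 0.0134). *Clock* itself was at 62.0 to 68.2 CPM in WT and 45.1 to 66.0 CPM in WT+ZnO NPs and was not called.

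Of the repressors, *Cry2*, the other cryptochrome, fell in WT+ZnO NPs, from 48.1, 53.4 and 47.4 CPM in WT to 39.7, 41.0 and 32.0 CPM (log2 fold change -0.40, SE 0.15, edgeR adjusted p = 0.0498). *Csnk1e*, a casein kinase that marks PERIOD proteins for degradation, rose from 73.4, 49.7 and 58.8 CPM to 81.5, 106 and 94.7 CPM (0.63, SE 0.21, edgeR adjusted p = 0.0306), which left 4 of 5 kinases and ligases not called. Among the outputs, *Noct*, which encodes nocturnin, rose from 33.7, 35.8 and 20.4 CPM to 46.9, 76.4 and 46.7 CPM (0.92, SE 0.30, edgeR adjusted p = 0.0290). *Tspan4*, a tetraspanin, fell from 91.9, 141 and 114 CPM to 20.4, 37.1 and 21.2 CPM (-2.14, SE 0.24, edgeR adjusted p = 0.000103). With Y-linked transcripts as a covariate *Cry2*, *Csnk1e* and *Noct* were no longer called, and with no filter on low counts *Cry2* and *Csnk1e* were not. Without WT replicate 2 only *Noct* and *Tspan4* were called, and without WT replicate 3 only *Tspan4* was.

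Between KO+ZnO NPs and KO, 2 of the 20 were called, both listed as outputs, where 14.7% of all genes were called (6.57% higher and 8.09% lower). *Nampt*, the rate-limiting enzyme of NAD salvage, rose from 97.1, 112 and 93.0 CPM in KO to 137, 148 and 179 CPM (log2 fold change 0.62, SE 0.17, edgeR adjusted p = 0.0346), and *Tspan4* fell from 115, 115 and 100.4 CPM to 56.1, 42.4 and 51.1 CPM (-1.14, SE 0.23, edgeR adjusted p = 0.0143). *Nampt* was not called with the replicate block, with no filter, with edgeR on KO and KO+ZnO NPs alone, with the Y-linked libraries left out, or without WT replicate 3, any 1 of the KO libraries, or KO+ZnO NPs replicate 2 or 3. *Tspan4* was called in all of these except without KO replicate 2. Between KO and WT 0 of 20 were called and 4 (*Npas2*, *Bhlhe40*, *Csnk1e* and *Hlf*), all higher in KO, had an unadjusted p below 0.05, as did 26.1% of all genes. In that comparison 6 of 20 did not overlap, all higher in KO, beside 18.6% of all genes higher and 38.5% either way. The nearest to the threshold was *Bhlhe40*, which encodes the repressor DEC1, at 68.7, 75.85 and 58.9 CPM in WT and 170.3, 221 and 139.6 CPM in KO (1.38, SE 0.39, edgeR adjusted p = 0.0527). It was called in 10 of 22 alternative settings, among them the replicate block, both forms of DESeq2, scaling by library size and either other filter on low counts. *Hlf*, the third PAR bZIP factor beside *Dbp* and *Tef*, was at 18.3 to 24.9 CPM in WT, 28.1 to 36.2 CPM in KO, 17.0 to 20.4 CPM in WT+ZnO NPs and 15.8 to 39.3 CPM in KO+ZnO NPs. The comparison of the groups given ZnO NPs and the interaction called 0 of 20, with 5 and 6 genes at an unadjusted p below 0.05, beside 24.8% and 27.4% of all genes.

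**Figure D5:**
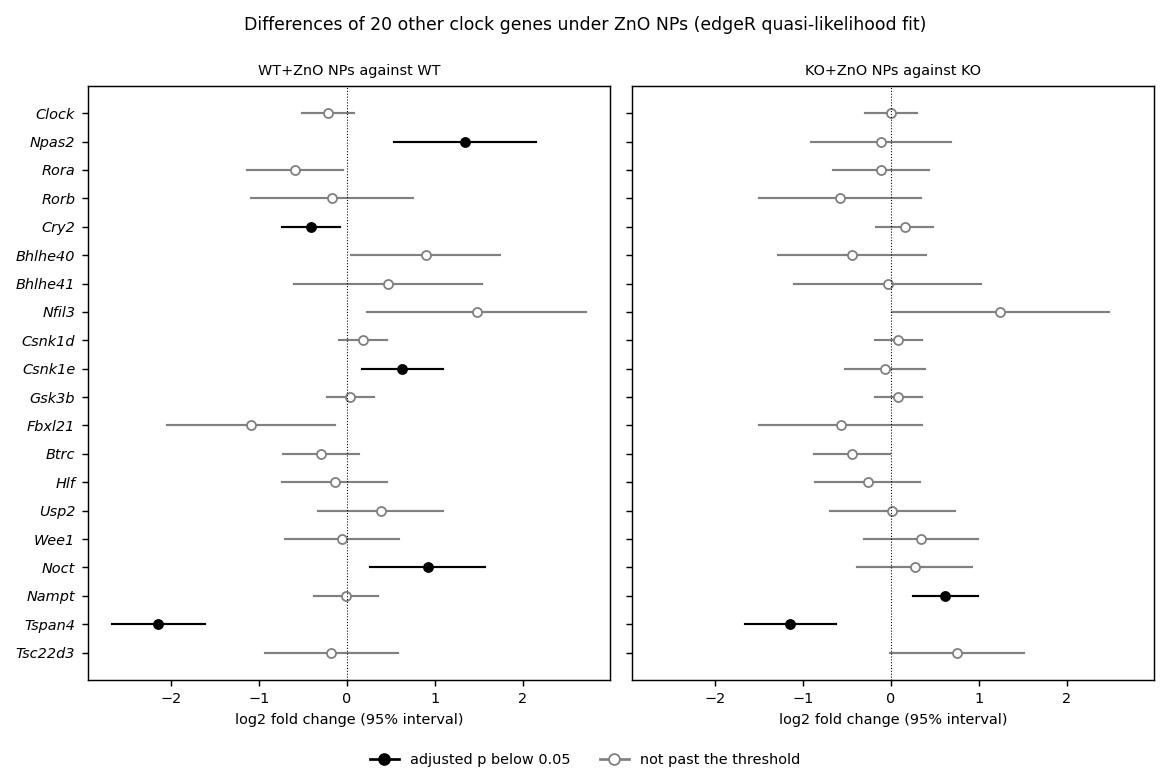
Log2 fold change (horizontal axes) of 20 other clock genes (rows) for WT+ZnO NPs against WT (left) and KO+ZnO NPs against KO (right), with 95% intervals from edgeR's quasi-likelihood fit; filled points passed an adjusted p of 0.05. *Tspan4* is filled in both (-2.14 and -1.14), and *Npas2*, *Cry2*, *Csnk1e* and *Noct* on the left and *Nampt* on the right are the other filled points.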

How the data were processed

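RNA-seq was read in 12 skin libraries, 3 per group, grouped by their labels, which match the groups of the study's methods. The authors deposited raw read counts, whole numbers for each gene in each library that had not been normalized. The paper names TRIzol extraction, poly-T selection, a NEBNext Ultra kit, STAR and HTSeq, whereas the submitters' processing notes name HISAT2 2.0.5 and mm10, so that the aligner is uncertain. The release of the annotation and whether strand was used were not given in the sources used here. HTSeq by default drops reads that overlap more than 1 gene, which can lower the counts of *Dbp* and *Nr1d1*.

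Gene identifiers were matched to GENCODE release 21 on GRCm38 (52489 of 52636 genes), and 0 entries named no gene. Tests were run in R 4.3.3 with edgeR 4.0.16 (quasi-likelihood test, TMM factors, filterByExpr, 1 coefficient per group, all 12 libraries, common dispersion 0.109) and Benjamini-Hochberg adjustment over 18822 genes, with calls at an adjusted p below 0.05. Standard errors were approximated as the size of the fold change over the root of F. Levels are CPM scaled by TMM factors, and log2 CPM used a prior count of 2. Replicates differed by more than sampling noise (chi-square over its degrees of freedom, 40.8 to 178). The p-values set a difference between groups against the spread between mice, which was estimated over all 4 groups. An exact permutation test of 3 against 3 libraries cannot go below p = 0.1 and was not used. Shared sequence was counted in 50-base stretches: the share of stretches also present in transcripts of other genes was 16.2% for *Dbp*, 11.9% for *Ciart*, 7.27% for *Nr1d1* and 5.13% for *Nr1d2*, and at most 1.83% for the other 6 genes.

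Some other genes of the clock are not reported here. The members and lists were chosen with earlier results of these data known. The text names the 10 genes, the 20 other clock genes and the stimulus genes that passed in a comparison, the labels' check genes, and, for *Dbp* and *Arntl*, the 5 genes with the highest and the 3 with the lowest correlation among those of at least 5 CPM. The alternatives tried were scaling by RLE or by library size, DESeq2 1.42.0, fits of edgeR or DESeq2 restricted to the groups of a comparison, dropping the filter or asking for 10 counts in each library, a block for the replicate number, Y-linked transcripts (above 10 CPM) as a covariate, leaving out the KO and KO+ZnO NPs libraries with Y-linked transcripts, and leaving out each library in turn. The edgeR fit, without its filter on low counts, was tested on simulated counts for KO against WT and KO+ZnO NPs against KO. The other comparisons, DESeq2, the covariate and block fits, the overlaps, spreads, correlations and motif counts were not. Figures were drawn with matplotlib 3.10.9.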

Additional observations from a re-analysis of the deposited data

How the results depend on the processing

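The 10 genes had 0 calls between KO and WT, between the groups given ZnO NPs and in the interaction under every alternative run. For WT+ZnO NPs against WT the count of 1 became 7 with DESeq2 on the groups compared alone (40.6% of all genes called), 5 with edgeR on those groups (49% called), 2 with DESeq2 on all 12 libraries (40.3%), with library size only (44.3%) or with no filter (22.1%), and 0 with the Y-linked covariate (20.7%). For KO+ZnO NPs against KO the count of 0 became 1, *Nr1d1*, with DESeq2 on all libraries (22.1% of all genes called) or on those groups (13.9%) and with no filter (6.18%). For any difference among the 4 groups the count of 1 became 3 with DESeq2 (48% of all genes) or no filter (23.6%). It became 0 with library size only (48.3%), with the covariate (29.8%) or with the Y-linked KO and KO+ZnO NPs libraries left out (42.7%). With 1 library left out at a time, these counts ran from 0 to 5, from 0 to 2 and from 0 to 5 in that order. The shares of all genes called in these fits ran from 30.7% to 46.7%, from 2.34% to 16.4% and from 34.2% to 52.3%. The highest count of the last was without KO+ZnO NPs replicate 3, where 52.3% of all genes were called. Fits on the groups compared alone give no value for the interaction or the test over 4 groups. They differ in the libraries and in the genes tested, and the cause of the changes was not tested.

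Of the 20 other clock genes, the 0 calls between KO and WT became 3 with DESeq2 (21.7% of all genes called) and 2 with edgeR (15.9%) on the groups compared alone and 1, *Bhlhe40*, with DESeq2 on all libraries (14.2%), library size only (8.29%), no filter (4.21%) or 10 counts in every library (9.7%), and ran from 0 to 2 with a library left out. The 5 calls for WT+ZnO NPs became 3 with no filter (22.1%) and 2 with the covariate (20.7%; 1 to 7 with a library left out). The 2 calls for KO+ZnO NPs against KO became 1 with edgeR on those groups (3.24%), no filter (6.18%) or the Y-linked libraries left out (13.1%; 0 to 2). Between the groups given ZnO NPs the 0 calls became 3 and 2 with DESeq2 on all and on those groups (11.8% and 4.35%), 2 with 10 counts in every library (5.44%) and 1 with library size only (4.11%; 0 to 1), and the interaction became 2 with DESeq2 (17.3%; 0 to 2).

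Same-numbered libraries correlated from -0.34 to 0.43 in their deviations from the group means, and at 0.43, 0.16 and 0.05 between KO and KO+ZnO NPs. Differently numbered libraries were not correlated, so that whether the replicate numbers pair the mice cannot be told. With the replicate number as a block, 2 of the 10 genes (*Dbp* and *Per2*) were called for WT+ZnO NPs against WT (42.9% of all genes under the block), and *Dbp* in place of *Per2* for any difference among the 4 groups (45%). Of the other clock genes the block called 7 for WT+ZnO NPs against WT (with *Bhlhe40* and *Nfil3* added), and 1 for KO against WT (6.58% of all genes), for KO+ZnO NPs against KO (13.8%), between the groups given ZnO NPs (3.33%) and in the interaction (7.59%), and the log2 fold change of *Per3* between the groups given ZnO NPs turned to -0.12 under the block.

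Signs turned only for differences that were not called. Between KO and WT, *Tef* was at -0.016 with RLE factors, -0.018 with DESeq2, -0.0014 with library size, -0.0071 with the covariate and -0.13 with the Y-linked libraries left out, which put *Nr1d1* at -0.071, *Ciart* at 0.20 for KO+ZnO NPs against KO and *Dbp* at 0.025 between the groups given ZnO NPs. Between those groups *Per3* was at -0.0009 with RLE factors, -0.0024 with edgeR on those groups, -0.095 with library size and -0.018 with the covariate, *Arntl* at -0.077 with library size and -0.20 with the covariate, and *Ciart* at 0.069 with the covariate. The interaction of *Per1* was at -0.015 with RLE factors, -0.021 with no filter, -0.15 with library size, -0.0075 with DESeq2 and -0.035 with 10 counts in every library, and that of *Nr1d2* at -0.034 with library size. With a library left out, KO against WT ran from -0.13 to 0.12 for *Tef*, -0.33 to 0.049 for *Cry1*, -0.22 to 0.21 for *Nr1d1*, -0.090 to 0.21 for *Nr1d2* and -0.11 to 0.38 for *Arntl*. WT+ZnO NPs against WT ran from -0.15 to 1.06 for *Per1*, and KO+ZnO NPs against KO from -1.08 to 0.011 for *Per3* and -0.24 to 0.19 for *Ciart*. Between the groups given ZnO NPs the ranges were -1.001 to 0.34 for *Dbp*, -0.27 to 0.44 for *Tef*, -0.089 to 1.204 for *Per1*, -0.13 to 0.54 for *Per2*, -0.65 to 0.44 for *Per3*, -0.12 to 0.40 for *Nr1d2* and -0.44 to 0.38 for *Arntl*. For the interaction they were -0.68 to 0.66 for *Dbp*, -0.28 to 0.43 for *Tef*, -0.42 to 0.88 for *Per1*, -0.46 to 0.63 for *Per3*, -0.20 to 0.33 for *Nr1d2* and -0.58 to 0.25 for *Arntl*.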

Other observations

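Genes outside the clock with a course over the 12 libraries like that of *Dbp* or *Arntl* were sought among 12840 genes whose mean level reached 5 CPM, by the Pearson correlation of log2 CPM. For *Dbp* the highest were *Tex2*, *Ttc30b*, *Sec24b*, *Snx13* and *Slc22a5* (0.93 for each, *Slc22a5* being a carnitine transporter and *Sec24b* a COPII coat protein), and the lowest were *Zfp628* (-0.96), *Cep83* (-0.95) and *Utp14a* (-0.95). For *Arntl* the highest were *4921524J17Rik* (0.93), *Fam76b* (0.91), *Frg1* (0.90), *Zfp628* (0.88) and *Srsf5* (0.88), a splicing factor, and the lowest were *Phldb1* (-0.94), *Wdr6* (-0.93) and *Aoc3* (-0.93). *Zfp628* was in both lists, with opposite signs. These genes were picked as extremes of 12840 over 12 points that share 4 groups, and the values are descriptions.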
